A study of Mus musculus with 15 samples.

Results

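Resident macrophage identity genes were followed in the podocyte fraction of young and aged mouse kidneys. These genes, 10 in all (Csf1r, Csf1, Adgre1, Cx3cr1, P2ry12, Mrc1, Cd163, Cd68, Trem2 and Mertk), were chosen by name, and all 10 were present among the 46078 genes of the deposited count table and passed the filter on low counts in every comparison. The libraries came from young male C57BL/6J mice of 4 months that received no injection, and from aged males of 21 months injected once a week for 8 weeks with 12 mg/kg of either an anti-PD-1 antibody (RMP1-14, aPD1ab) or its isotype control IgG2a (2A3). The label of the aPD1ab group states 47 days of treatment. Because the young mice were not injected, age and injection cannot be told apart in any comparison with them. Cells were enriched from digested kidney cortex by magnetic sorting with antibodies to nephrin, a podocyte surface protein, so a macrophage transcript in these libraries was read from a sort aimed at another cell type. Of the 5 mice listed for each group, 5 young, 4 IgG2a and 4 aPD1ab libraries could be tied to a group.

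Resident macrophages live in the kidney between tubules and beside glomeruli and are maintained through the receptor CSF1R, which is bound by the growth factors CSF1 and IL-34. They carry F4/80 (Adgre1) and the fractalkine receptor CX3CR1, take up ligands through the mannose receptor (Mrc1) and the haptoglobin-hemoglobin receptor CD163, degrade cargo in CD68-containing lysosomes, and recognize lipids and dead cells through TREM2 and MERTK. P2RY12, a receptor for ADP, is best known from platelets and from microglia, the macrophages of the brain.

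Total counts ranged from 19912969 to 32717100 per library (median 24683223), and even P2ry12, a gene with few reads, was read by 63 to 605 counts per library. Levels are given as CPM, read counts scaled by TMM to a common library size. Aged IgG2a replicate 1 stood apart from the other IgG2a libraries: on the first principal component (40.67% of the variance of 16330 genes) it lay at -16.4 and the others between 71.6 and 84.2. Changes of the 10 genes and counts over gene lists that use it are therefore given with and without it, and values of single listed genes are from all libraries unless stated. On the same component aPD1ab replicate 2 lay at -64.9 and the others of its group between -13.9 and 10.9. That library is left out only where this is stated. IgG2a replicate 1 was picked from the expression values of these same libraries. It also had the lowest CPM of its group for all of the 10 genes except Csf1. Leaving it out narrowed the SD of Csf1r in that group from 385 to 93.4 CPM. The p-values without it therefore follow a choice made on the same data. The sort was not pure. The summed level of 8 podocyte markers was 791 to 1280 CPM in young, 294 to 384 in IgG2a and 195 to 662 in aPD1ab libraries, and that of 10 proximal tubule markers was 6855 to 10683, 992 to 4851 and 4557 to 13888 CPM. In bulk samples, fewer cells of a type and less RNA per cell cannot be told apart.

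The 16 genes of a macrophage core list, which holds none of the 10 genes, summed to 2721 to 4977 CPM in young libraries. IgG2a replicate 1 had 3984 and the other 3 IgG2a libraries had 9882 to 13161 CPM. The aPD1ab libraries had 3258 to 7235 CPM. None of the 16 was at 0 in every library. A list of 6 pan-leukocyte genes followed the same order, with 763 to 1300 CPM in young, 791 in IgG2a replicate 1, 2140 to 2517 in the other IgG2a and 661 to 1422 in aPD1ab libraries. The proximal tubule markers ran the other way: 4851 CPM in IgG2a replicate 1 and 992 to 1451 in the other IgG2a libraries. The part of this mixture in the results on single genes was not tested by the comparisons of levels.

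**Figure D1:**
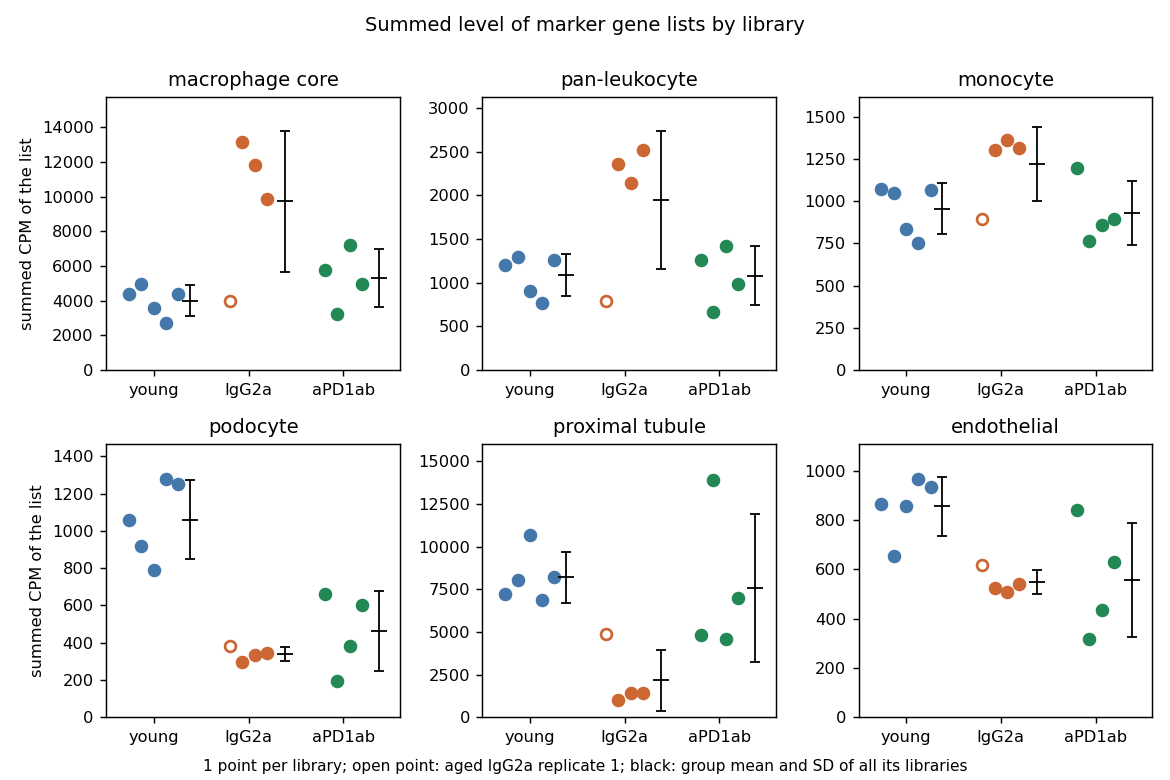
Summed CPM of 6 marker lists (y axes, linear from 0) in each library of the 3 groups (x axes); open points are aged IgG2a replicate 1 and black marks are the mean and SD of all libraries of a group. The other 3 IgG2a libraries had 9882 to 13161 CPM of macrophage core genes and 992 to 1451 CPM of proximal tubule genes, and replicate 1 lay with the young libraries in the first and between both in the second.

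Promoter sequence is shown for 4 genes chosen by their results. Trem2 and P2ry12 had the largest fold changes with age. Csf1 and Mertk, like Cd163, did not pass the test in any of the 3 comparisons with all libraries. The 250 bases before the annotated start were taken from RefSeq (GRCm38.p6) and are written 5′ to 3′ on the strand of the gene. They lie at chr17:48346151-48346400 (plus strand) for Trem2, chr3:59262986-59263235 (minus strand) for P2ry12, chr3:107760470-107760719 (minus strand) for Csf1 and chr2:128698665-128698914 (plus strand) for Mertk. Capitals mark matches to GAGGAA or GGAAGT, which resemble parts of the site bound by the myeloid factor PU.1, or to TGANTCA, the core of AP-1 sites, on either strand. GAGGAA and GGAAGT can overlap each other.
Trem2: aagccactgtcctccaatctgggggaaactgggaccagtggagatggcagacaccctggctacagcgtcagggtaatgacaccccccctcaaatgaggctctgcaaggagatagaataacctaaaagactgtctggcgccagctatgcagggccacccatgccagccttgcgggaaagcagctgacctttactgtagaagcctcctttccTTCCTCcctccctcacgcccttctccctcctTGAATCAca
P2ry12: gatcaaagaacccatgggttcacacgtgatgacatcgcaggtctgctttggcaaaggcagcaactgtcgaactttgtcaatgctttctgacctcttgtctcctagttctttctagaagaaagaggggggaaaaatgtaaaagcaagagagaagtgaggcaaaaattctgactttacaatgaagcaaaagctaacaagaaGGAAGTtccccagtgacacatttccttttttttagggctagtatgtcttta
Csf1: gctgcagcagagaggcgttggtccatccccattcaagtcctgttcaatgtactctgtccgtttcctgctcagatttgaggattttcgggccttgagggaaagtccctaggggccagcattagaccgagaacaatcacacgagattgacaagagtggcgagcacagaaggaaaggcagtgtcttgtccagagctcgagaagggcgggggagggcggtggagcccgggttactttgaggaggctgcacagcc
Mertk: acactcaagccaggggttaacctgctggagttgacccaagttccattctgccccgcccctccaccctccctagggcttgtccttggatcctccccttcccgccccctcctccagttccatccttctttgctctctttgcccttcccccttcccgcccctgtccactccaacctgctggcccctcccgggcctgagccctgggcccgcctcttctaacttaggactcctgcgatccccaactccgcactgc

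Counted from the start of transcription, Trem2 had a GAGGAA match on the reverse strand from -40 to -35 and TGANTCA from -9 to -3. The latter reads TGAATCA and is not taken as an AP-1 site here. P2ry12 had GGAAGT from -51 to -46. The windows of Csf1 and Mertk held none of the 3. The same was true for Cx3cr1, called higher with age, and for Cd163, which was not called. Over windows from 250 bases before to 50 after the start, 8 of the 10 genes had an entry that could be used, and GAGGAA matched in 3 of 8 (Mrc1, Cd68 and Trem2), GGAAGT in 3 of 8 (P2ry12, Mrc1 and Cd68) and TGANTCA in 2 of 8 (Cd68 and Trem2). Of 32851 windows of that length, 28.3% held GAGGAA, 23.8% GGAAGT and 7.81% TGANTCA. The share for TGANTCA counts windows with any middle base, and the Cd68 matches read TGAGTCA. A match describes the letters of a window and not a bound site.

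When IgG2a-injected aged mice were set against young mice, a difference called with age below although injection differed too, 7 of the 10 genes were higher at an adjusted p under 0.05 (edgeR's quasi-likelihood test, Benjamini-Hochberg adjustment over 15953 genes), against 9.05% of all genes tested that were higher and 8.38% that were lower. The 7 were Trem2, P2ry12, Cd68, Mrc1, Csf1r, Cx3cr1 and Adgre1. Cd163 (log2 fold change 0.75, SE 0.42), Mertk (0.11, SE 0.19) and Csf1 (-0.09, SE 0.17) did not pass. The median log2 fold change was 1.15 over the 10 genes and 0.04 over all genes. Without IgG2a replicate 1 it was 7 of 10 again, against 22.1% of 16216 genes called higher and 23.5% called lower, and for 7 of 10 every IgG2a library lay above every young one, as for 19.4% of all genes. Most of these calls were lost in at least 1 fit that left out a single library, and calls over all genes mostly fell too. With all libraries 2780 of 15953 genes were called in either direction. Leaving out young replicates 1 to 5 in turn left 2, 4, 1, 2 and 4 of the 10 called. Over all genes it left 1037, 1350, 809, 1116 and 1504. Leaving out IgG2a replicates 1 to 4 left 7, 1, 1 and 3 of the 10, and 7397, 672, 553 and 1015 of all genes. In these fits Trem2 stayed called and the edgeR adjusted p rose to at most 0.0550 for P2ry12, 0.0707 for Cd68, 0.0715 for Mrc1, 0.0960 for Csf1r, 0.121 for Cx3cr1 and 0.125 for Adgre1, each with its sign kept. With the proximal tubule markers scored and added to the model, 0 of 10 and 36 of 15953 genes were called, and the median of the 10 turned to -0.41.

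When aPD1ab-injected mice were compared with IgG2a-injected mice, all 10 genes were lower on average and 0 of 10 were called, as were 0.0% of 15530 genes. At an unadjusted p under 0.05 there were 8 of 10 (all except Csf1 and Mertk), beside 28.0% of all genes. The median was -1.06 for the 10 genes and -0.01 for all genes. Without IgG2a replicate 1, 8 of 10 were lower at an adjusted p under 0.05, against 13.2% of 15770 genes, so that this comparison depended on that library. For 9 of 10 every aPD1ab library then lay below every IgG2a one, as for 18.5% of all genes. The fall was shared in that fit by 14 of 16 macrophage core genes (median -1.14) and 5 of 6 pan-leukocyte genes (median -1.07). Of 10 monocyte genes 1 was called lower there. With all libraries, DESeq2 called 7 of the 10 genes lower (6.33% of all genes), limma with quality weights 8 (18.8%), and a single edgeR fit of all 3 groups 6 (6.14%). Without aPD1ab replicate 2 and with all IgG2a libraries, edgeR called 0 of 10, as it did 0 of 15788 genes, and the median was -0.89. With the proximal tubule covariate the median was 0.05 and 0 of 10 were called, as were 0 of 15530 genes.

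In aPD1ab-injected mice compared with young mice, Trem2 alone among the 10 was called, and it was higher, as were 12.4% of 15986 genes, while 9.97% were lower. The median over the 10 genes was -0.09 and that over all genes was 0.02. The 3 comparisons share libraries and are not independent of each other.

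**Figure D2:**
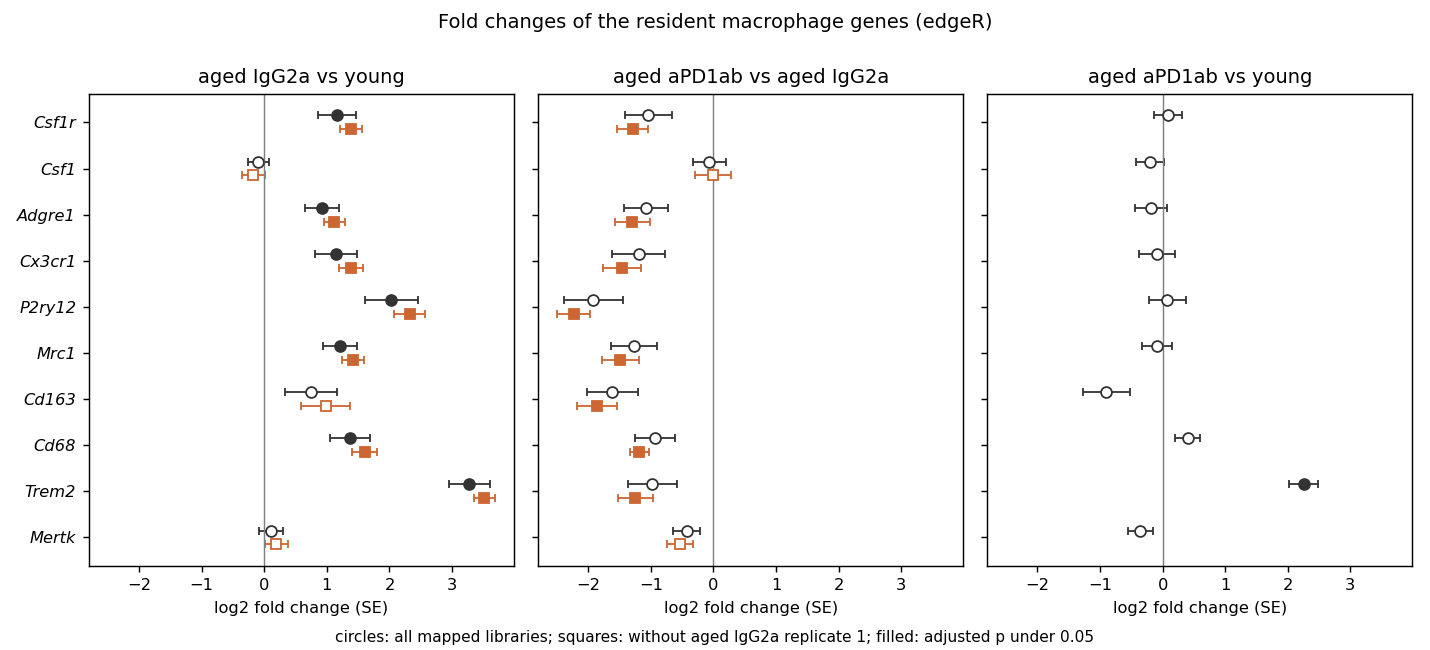
Log2 fold change with its SE (x axes) of the 10 genes (y axis) in the 3 comparisons; circles use all mapped libraries, squares leave out aged IgG2a replicate 1, and filled symbols have an adjusted p under 0.05. With age 7 genes were filled to the right, with aPD1ab against IgG2a the 8 squares to the left were filled and none of the circles, and in aPD1ab against young mice the one filled circle is Trem2, at 2.26.

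Csf1r (ENSMUSG00000024621, chromosome 18, 61100598 to 61132149, GRCm38), the growth factor receptor of the macrophage lineage, had the highest level per length of the 10 genes in young and IgG2a mice. It was at 548, 577, 408, 347 and 524 CPM in young libraries. The IgG2a libraries had 455, 1267, 1258 and 1101 CPM. The aPD1ab libraries had 615, 340.3, 658 and 411 CPM. Of the IgG2a libraries 3 exceeded every other library, and replicate 1 lay within the young range. Csf1r rose with age by a log2 fold change of 1.16 (SE 0.31, edgeR adjusted p = 0.0324), and by 1.39 (SE 0.17, edgeR adjusted p = 0.000121) without IgG2a replicate 1. With aPD1ab against IgG2a the value was -1.04 (SE 0.37, edgeR adjusted p = 0.129), and without that replicate it fell by 1.29 (SE 0.25, edgeR adjusted p = 0.00974). A neighbor on the opposite strand, Hmgxb3, shares 873 bases (15.1%) of the Csf1r exons. The strand setting of the counting is not given in the sources used here, so reads in that stretch cannot be assigned to either gene.

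Csf1 (ENSMUSG00000014599, chromosome 3, 107741048 to 107760469), which encodes the ligand and is made by many stromal and epithelial cells, did not follow its receptor. Its level was 28.1, 26.7, 38.7, 28.4 and 35.7 CPM in young, 32.5, 31.4, 29.7 and 19.1 CPM in IgG2a, and 38.2, 19.8, 18.7 and 32.0 CPM in aPD1ab libraries. The groups overlapped in every comparison. Its log2 fold change was -0.09 (SE 0.17) with age and -0.07 (SE 0.26) with aPD1ab against IgG2a, and the edgeR adjusted p values were 0.719 and 0.883. Without IgG2a replicate 1 they were -0.17 (edgeR adjusted p = 0.460) and -0.0081 (edgeR adjusted p = 0.987). Of 12 other genes of the CSF1 receptor axis and its myeloid transcription factors, 7 were higher and 1 was lower with age, with a median log2 fold change of 1.04, and 11 were higher and 1 was lower without IgG2a replicate 1. Cebpb, a factor of inflammatory macrophages, rose by 1.76 and Nr1h3, the oxysterol receptor LXR-alpha, by 1.02 (edgeR adjusted p = 0.0140 and 0.00713). The 1 that fell was Il34, which encodes the other CSF1R ligand and was named after its values were seen: young mice had 9.62 ± 2.06 CPM (SD, n = 5) and IgG2a mice 4.88 ± 1.42 CPM (SD, n = 4) of it (log2 fold change -0.91, edgeR adjusted p = 0.0300).

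Adgre1 (ENSMUSG00000004730, chromosome 17, 57358691 to 57483527) encodes F4/80, the surface antigen most used to stain mouse macrophages. Young libraries had 187, 248, 181, 138 and 209.7 CPM, IgG2a libraries 179.5, 416, 447 and 346 CPM, and aPD1ab libraries 223, 92.2, 207 and 151 CPM. The same 3 IgG2a libraries stood above all others. Adgre1 rose with age by 0.92 (SE 0.27, edgeR adjusted p = 0.0429) on the log2 scale, the smallest change among the genes called, and by 1.12 (SE 0.17, edgeR adjusted p = 0.000413) without IgG2a replicate 1. In 1 fit of all 3 groups and with no filter on low counts it was not called (edgeR adjusted p = 0.0652 and 0.0535), nor was Cx3cr1 (0.0567 and 0.0563). With aPD1ab against IgG2a it differed by -1.07 (SE 0.35, edgeR adjusted p = 0.121), and by -1.29 (SE 0.28, edgeR adjusted p = 0.0132) without IgG2a replicate 1.

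Cx3cr1 (ENSMUSG00000052336, chromosome 9, 119901616 to 120069879), the receptor for fractalkine, was at 174, 201, 142, 95.7 and 154 CPM in young libraries. It was at 129.9, 408, 362 and 387 CPM in IgG2a and at 179, 74.3, 204 and 117 CPM in aPD1ab libraries. The gap from IgG2a replicate 1 to the next IgG2a library was wider than the spread of those 3. Cx3cr1 rose with age by 1.14 (SE 0.33, edgeR adjusted p = 0.0418), and the value with aPD1ab against IgG2a was -1.19 (SE 0.42, edgeR adjusted p = 0.127). Without replicate 1 these were 1.38 (edgeR adjusted p = 0.000313) and -1.46 (edgeR adjusted p = 0.0125). Of 7 genes of the CX3CR1 and CCR2 chemokine axis, 2 were higher with age, Ccl7, a chemokine for monocytes (2.16), and Adam17, a sheddase of fractalkine (0.59). Ccr2, the receptor of recruited monocytes, was at 0.76 (edgeR adjusted p = 0.178). When IgG2a replicate 1 was left out, 6 of the 7 were higher and 1 was lower, and Ccr2 rose by 1.04 (edgeR adjusted p = 0.000904).

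P2ry12 (ENSMUSG00000036353, chromosome 3, 59216272 to 59262871) had a low level but the second largest change with age. It was at 4.97, 5.92, 3.69, 2.38 and 4.14 CPM in young, at 4.78, 24.7, 16.6 and 19.7 CPM in IgG2a and at 4.92, 2.56, 5.62 and 4.64 CPM in aPD1ab libraries. In 3 IgG2a libraries P2ry12 was at 16.6 CPM or more, and none of the other 10 libraries exceeded 5.92 CPM. P2ry12 rose with age by 2.03 (SE 0.43, edgeR adjusted p = 0.0183), 4.09-fold, and by 2.32 (SE 0.25, edgeR adjusted p = 6.9e-05), 5.00-fold, without IgG2a replicate 1. With aPD1ab against IgG2a the value was -1.92 (SE 0.47, edgeR adjusted p = 0.109), and it fell by 2.23 (SE 0.26, edgeR adjusted p = 0.0064) without that replicate. The aPD1ab mice differed from young mice by 0.08 (SE 0.29, edgeR adjusted p = 0.871).

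P2ry12 lies within the body of Med12l, which runs on the opposite strand and shares 9 bases of exon with it, in a cluster of related receptors. Of 5 neighbors in this cluster 4 were tested and 1 was called with age (2 without IgG2a replicate 1): P2ry13, another ADP receptor, rose by 2.43 (edgeR adjusted p = 0.00612), from 3.30 ± 1.14 CPM (SD, n = 5) to 17.0 ± 7.28 CPM (SD, n = 4). P2ry14 (0.59), Gpr171 (-0.47) and Med12l (-0.03, named after its values were seen) were not called with all libraries, and without that replicate P2ry14 rose by 0.70 (edgeR adjusted p = 0.0241). In aPD1ab mice P2ry13 was at 6.82 ± 2.24 CPM (SD, n = 4), higher than in young mice by 1.06 (edgeR adjusted p = 0.0255). Among 10 genes associated with microglia, 3 were higher and 2 lower with age, and 7 were higher and 2 lower without IgG2a replicate 1. Olfml3, a secreted protein of microglia, rose by 1.91 and P2ry13 was another of the 3. Sparc, a matrix protein that many kidney cells make, fell by 0.64. Selplg (1.04, edgeR adjusted p = 0.0625), a selectin ligand of leukocytes, did not pass with all libraries and rose by 1.29 (edgeR adjusted p = 0.000398) without that replicate.

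Mrc1 (ENSMUSG00000026712, chromosome 2, 14229392 to 14332057) encodes the mannose receptor CD206. Young libraries had 129, 157, 97.1, 113 and 139 CPM, IgG2a libraries 142, 345, 387 and 242 CPM, and aPD1ab libraries 136, 61.1, 143 and 133 CPM. Replicate 2 of the aPD1ab group had less than any other library, and the other 3 of that group lay close together. Mrc1 rose with age by 1.21 (SE 0.28, edgeR adjusted p = 0.0228), and was at -1.27 (SE 0.37, edgeR adjusted p = 0.109) with aPD1ab against IgG2a. When IgG2a replicate 1 was left out, it rose by 1.41 (SE 0.18, edgeR adjusted p = 0.000156) in the former comparison and fell by 1.49 (SE 0.29, edgeR adjusted p = 0.0109) in the latter.

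Cd163 (ENSMUSG00000008845, chromosome 6, 124304656 to 124330527) had 9.08, 8.46, 3.81, 16.2 and 9.96 CPM in young, 6.95, 16.3, 24.4 and 13.5 CPM in IgG2a and 4.84, 3.05, 7.83 and 4.64 CPM in aPD1ab libraries. All groups overlapped, and the young libraries alone spread from 3.81 to 16.2 CPM. Its change with age was 0.75 (SE 0.42, edgeR adjusted p = 0.220), or 0.98 (SE 0.39, edgeR adjusted p = 0.0679) without IgG2a replicate 1. With aPD1ab against IgG2a it was at -1.61 (SE 0.40, edgeR adjusted p = 0.109) and, without IgG2a replicate 1, it fell by 1.86 (SE 0.32, edgeR adjusted p = 0.00784). Of the 10 genes it had the lowest value in aPD1ab against young mice, with means of 5.09 ± 1.99 CPM (SD, n = 4) and 9.51 ± 4.45 CPM (SD, n = 5) and a log2 difference of -0.90 (SE 0.38, edgeR adjusted p = 0.110). Without young replicate 3, its lowest young library, this was -1.10 (edgeR adjusted p = 0.0382). Of 10 relatives among scavenger and mannose receptors 9 were tested with age, and 4 were higher and 2 lower, or 4 and 4 without IgG2a replicate 1. Msr1, the class A scavenger receptor, rose by 1.64, Clec7a, the beta-glucan receptor dectin-1, by 1.61 and Stab1, a scavenger receptor of tissue macrophages, by 0.81, while Cd36, a fatty acid carrier that endothelium and tubule also express, fell by 0.82. Among 8 genes of heme and iron handling, the processes CD163 feeds, 4 were higher with age, with and without IgG2a replicate 1, led by the iron exporter Slc40a1 (2.07) and biliverdin reductase B (Blvrb, 1.46), and 6 of 7 tested were higher in aPD1ab than in young mice.

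Cd68 (ENSMUSG00000018774, chromosome 11, 69664213 to 69666153), a lysosomal membrane protein abundant in phagocytes, was at 96.5, 105, 77.4, 51.6 and 99.2 CPM in young, 92.2, 280.5, 233 and 239 CPM in IgG2a and 133, 90.7, 114 and 113 CPM in aPD1ab libraries. The 3 higher IgG2a libraries exceeded all others. Cd68 rose with age by 1.37 (SE 0.32, edgeR adjusted p = 0.0233), 2.59-fold, and was at -0.93 (SE 0.32, edgeR adjusted p = 0.126) with aPD1ab against IgG2a. With IgG2a replicate 1 left out, Cd68 rose with age by 1.60 (SE 0.20, edgeR adjusted p = 0.000202) and fell by 1.18 (SE 0.15, edgeR adjusted p = 0.0064) with aPD1ab against IgG2a. Of 8 other lysosome proteins, 3 were higher with age and their median was 0.24. Leaving out IgG2a replicate 1 gave 4 higher and 3 lower. Ctsb (cathepsin B, 1.28) and Npc2, which moves cholesterol out of lysosomes (1.04), were among the 3, and the membrane proteins Lamp1 (-0.04) and Lamp2 (-0.30) were not called with all libraries. In the fit that left out the replicate Lamp2 fell by 0.36 (edgeR adjusted p = 0.0329).

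Trem2 (ENSMUSG00000023992, chromosome 17, 48346401 to 48354147) encodes a receptor for lipids and apoptotic cells that signals through the adaptor DAP12 (Tyrobp). It was at 4.19, 4.03, 3.53, 3.56 and 5.22 CPM in the young libraries. The IgG2a libraries had 15.4, 45.5, 55.1 and 35.1 CPM, and the aPD1ab libraries 18.1, 12.1, 29.4 and 18.7 CPM. All 8 aged libraries, IgG2a replicate 1 included, exceeded all 5 young libraries. This held for no other gene of the 10 and for 2.19% of 16330 genes. Trem2 rose with age by 3.27 (SE 0.33, edgeR adjusted p = 0.00155), 9.66-fold, and by 3.52 (SE 0.17, edgeR adjusted p = 1.85e-06) without IgG2a replicate 1. In aPD1ab mice it was 4.78-fold higher than in young mice (log2 fold change 2.26, SE 0.23, edgeR adjusted p = 0.00205). Between the aged groups it was at -0.98 (SE 0.39, edgeR adjusted p = 0.152), and without replicate 1 it fell by 1.25 with aPD1ab (SE 0.28, edgeR adjusted p = 0.0152).

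Trem2 was called with age when any single library was left out, with log2 fold changes of 3.03 to 3.52, and it was called in 14 of 15 alternatives. The exception was the proximal tubule covariate, with which it was at 1.52 (SE 0.38, edgeR adjusted p = 0.118). In aPD1ab against young mice it was called in 15 of 15 alternatives, with values of 2.00 to 2.43, including 2.02 (edgeR adjusted p = 0.000384) with that covariate.

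Of 13 genes of the TREM2 pathway and of lipid-associated macrophages, 4 were higher and 0 lower with age (median 0.80). With IgG2a replicate 1 left out, 10 were higher and 0 lower (median 1.01). In this list 6 were higher and 1 lower in aPD1ab than in young mice (median 0.47). Gpnmb, a lysosomal glycoprotein of lipid-laden macrophages, was at 0.784 ± 0.291 CPM (SD, n = 5) in young, 16.8 ± 10.0 CPM (SD, n = 4) in IgG2a and 13.4 ± 9.47 CPM (SD, n = 4) in aPD1ab mice, a rise of 4.49 (edgeR adjusted p = 0.00248) and 4.11 (edgeR adjusted p = 0.00288) over young. Apoe, the lipid carrier and a TREM2 ligand, was at 514 ± 118, 2435 ± 1003 and 1516 ± 280 CPM (SD, n = 5, 4 and 4), and rose by 2.32 (edgeR adjusted p = 0.00476) and 1.57 (edgeR adjusted p = 0.00323). Lgals3, the lectin galectin-3, was higher in aPD1ab than in young mice by 0.92 (edgeR adjusted p = 0.00288). Spp1 (osteopontin), which tubule cells also make, was at 0.17 with age (edgeR adjusted p = 0.576). Ctsd, a lysosomal protease, was at 0.43 (edgeR adjusted p = 0.0949).

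Mertk (ENSMUSG00000014361, chromosome 2, 128698956 to 128802894), a tyrosine kinase receptor for dead cells bridged by GAS6 or protein S, was at 53.3, 54.1, 55.8, 89.8 and 67.2 CPM in young, 52.2, 82.2, 66.2 and 62.5 CPM in IgG2a and 62.2, 44.0, 35.5 and 56.4 CPM in aPD1ab libraries. The groups overlapped when all libraries were used. It was at 0.11 (SE 0.19, edgeR adjusted p = 0.717) with age and at -0.43 (SE 0.21, edgeR adjusted p = 0.220) with aPD1ab against IgG2a, and without IgG2a replicate 1 at 0.19 (edgeR adjusted p = 0.406) and -0.53 (edgeR adjusted p = 0.0781). Of 12 genes of its pathway and of dead cell uptake, 2 were higher and 0 lower with age, with a median of 0.09, and 5 were higher and 2 lower without IgG2a replicate 1. The 2 were Axl, the receptor most closely related to MERTK (1.16, edgeR adjusted p = 0.0342), and the cholesterol exporter Abca1 (0.96, edgeR adjusted p = 0.0168). Gas6 was at -0.04 (edgeR adjusted p = 0.879), and without that replicate it fell by 0.29 (edgeR adjusted p = 0.0304).

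**Figure D3:**
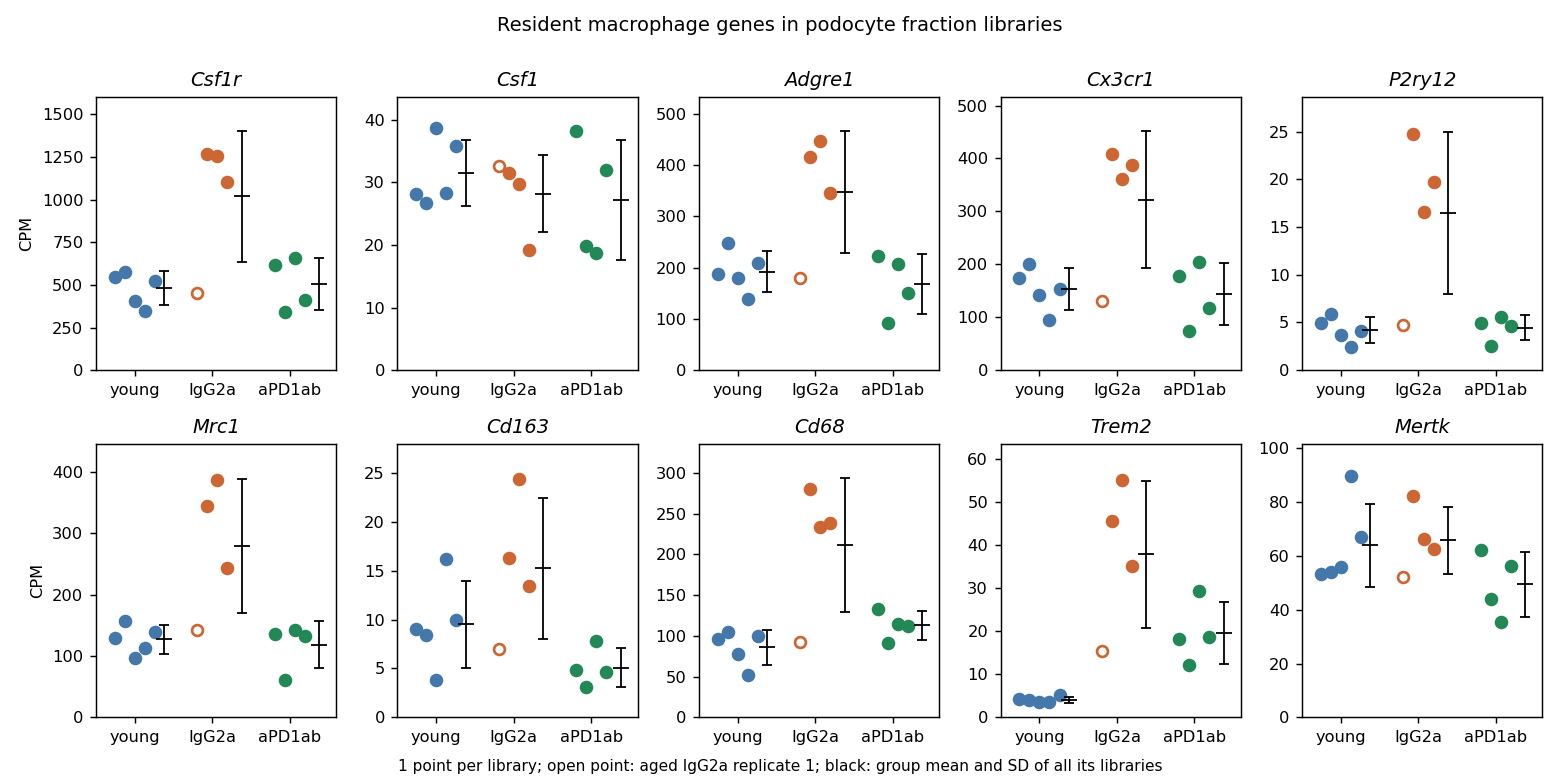
CPM (y axes, linear from 0) of the 10 genes in each library of the 3 groups (x axes); open points are aged IgG2a replicate 1 and black marks are the mean and SD of all libraries of a group. For Csf1r, Adgre1, Cx3cr1, P2ry12, Mrc1 and Cd68 the 3 filled IgG2a points lie above all others, for Trem2 all aged points lie above the young ones, and Csf1 and Mertk overlap between groups.

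To ask whether the 10 genes moved by more or less than macrophage transcripts in general, each was set against the summed counts of the 16 core genes and fitted again with that sum as the library size. On this scale the median of all genes shifted by -1.03 with age, by 0.66 with aPD1ab against IgG2a and by -0.34 with aPD1ab against young, and values are read against 0, the change of the core itself. With age 1 of 10 genes was called, Trem2, beside 0.238% of all genes called higher. Trem2 had 0.0810 to 0.131 reads per 100 core reads in young, 0.346 to 0.466 in IgG2a and 0.313 to 0.406 in aPD1ab libraries. IgG2a replicate 1, at 0.387, lay amid the other aged libraries on this scale. Relative to the core, Trem2 was higher by 1.89 (SE 0.33, edgeR adjusted p = 0.0182) in IgG2a and by 1.80 (SE 0.30, edgeR adjusted p = 0.00106) in aPD1ab than in young mice. In the second of these fits 0.463% of all genes were called higher. Between the aged groups the value was -0.08 (SE 0.41, edgeR adjusted p = 0.898). The first call was lost (edgeR adjusted p up to 0.0609) when young replicates 1 or 3 or IgG2a replicates 3 or 4 were left out, with log2 values of 1.79 to 1.98.

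P2ry12 was not called relative to the core with all libraries. It had 0.0875 to 0.119 reads per 100 core reads in young libraries, 0.120, 0.188, 0.140 and 0.199 in IgG2a libraries and 0.0776 to 0.0939 in aPD1ab libraries. Every IgG2a library exceeded every young and every aPD1ab library. Without overlap, Trem2 was also higher and Csf1r lower in IgG2a than in young libraries, and Cd163 lower in aPD1ab than in IgG2a libraries. The highest IgG2a value of Csf1r was 11.4202 and the lowest young value 11.4283 (edgeR adjusted p = 0.664). In aPD1ab against young libraries Trem2 was higher, and Csf1r, Adgre1, Cx3cr1 and Mrc1 were lower, without overlap. The share of all genes that separate in this way was not counted on this scale, so no result is read from these separations. The log2 difference of P2ry12 was 0.64 (SE 0.33, edgeR adjusted p = 0.113) with age and -0.95 (SE 0.44, edgeR adjusted p = 0.445) with aPD1ab against IgG2a. Without IgG2a replicate 1 these were 0.76 (SE 0.30, edgeR adjusted p = 0.0121) and -1.06 (SE 0.34, edgeR adjusted p = 0.0115). In those fits 1.02% and 0.14% of all genes were called in the same direction. In either direction they called 14335 of 16216 and 10699 of 15770 genes, so that the adjustment changed p-values little. The unadjusted edgeR p of P2ry12 was 0.0101 and 0.00558.

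Csf1r, Cx3cr1, Adgre1, Mrc1 and Cd68 differed from the core by log2 values of -0.37 (Adgre1) to 0.05 (Cd68) with age, and none of them was called. Cd68 was the closest, with 2.13 ± 0.141 (SD, n = 5), 2.21 ± 0.196 (SD, n = 4) and 2.24 ± 0.497 (SD, n = 4) reads per 100 core reads in young, IgG2a and aPD1ab mice. Csf1r took 12.1 ± 0.581 (SD, n = 5), 10.7 ± 0.789 (SD, n = 4) and 9.63 ± 1.12 (SD, n = 4) reads per 100 core reads, and its log2 difference between aPD1ab and young mice was -0.32 (SE 0.33, edgeR adjusted p = 0.576).

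Relative to the core, 8 of the 10 genes were lower on average in aPD1ab than in young mice. Adgre1 (-0.62), Mrc1 (-0.53) and Cx3cr1 (-0.53) were among them and were not called. Cd163 alone was called lower. It had 0.107 to 0.597 reads per 100 core reads in young, 0.124 to 0.206 in IgG2a and 0.0840 to 0.108 in aPD1ab libraries, and was lower in aPD1ab than in young mice by -1.46 (SE 0.40, edgeR adjusted p = 0.0322), as were 5.12% of all genes on this scale. The highest young value, 0.597, came from replicate 4, and the lowest, 0.107, overlapped the aPD1ab libraries. Without young replicate 4 the value was -0.91 (edgeR adjusted p = 0.135), and without aPD1ab replicates 1, 3 or 4 it was -1.40, -1.53 and -1.45 (edgeR adjusted p = 0.0550, 0.0540 and 0.0775). Mertk and Csf1 differed from the core by -1.15 (SE 0.44, edgeR adjusted p = 0.0778) and -1.14 (SE 0.48, edgeR adjusted p = 0.0814) with age. Without IgG2a replicate 1 both were called lower, as was Cd163 at -0.75, in a fit in which 87.4% of all genes were called lower and the median of all genes was -1.65.

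**Figure D4:**
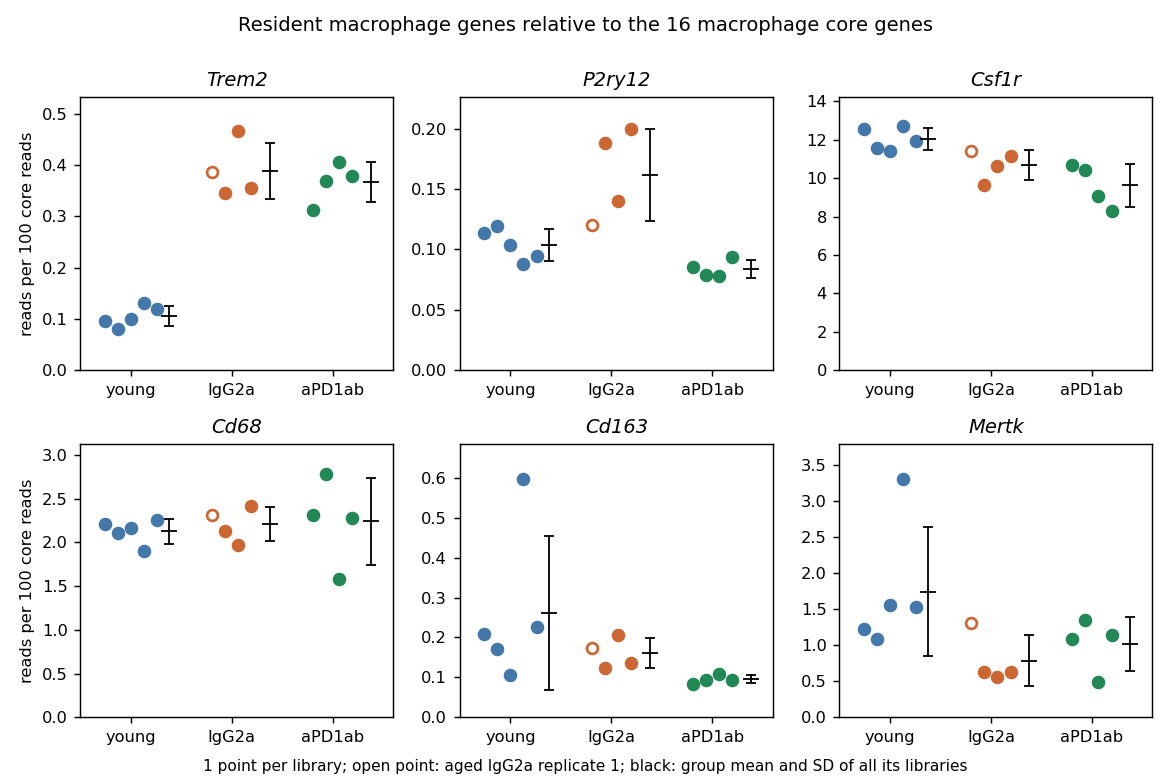
Reads per 100 reads of the 16 macrophage core genes (y axes, linear from 0) for 6 of the 10 genes in each library of the 3 groups (x axes); open points are aged IgG2a replicate 1 and black marks are the mean and SD of all libraries of a group. Trem2 lies at 0.313 to 0.466 in all aged and at 0.0810 to 0.131 in all young libraries, P2ry12 is highest in IgG2a, and Cd68 is level across groups.

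Levels per kilobase of exon (RPKM) placed the genes in the same upper order in young and IgG2a mice. In young mice Csf1r had 83.3 ± 17.1, Cd68 68.3 ± 17.3, Adgre1 59.5 ± 12.4, Cx3cr1 34.0 ± 8.70 and Mrc1 19.9 ± 3.60 RPKM (SD, n = 5), followed by Mertk with 14.8 ± 3.57 and Csf1 with 5.97 ± 1.01. Cd163 (1.74 ± 0.815), P2ry12 (1.66 ± 0.525) and Trem2 (0.830 ± 0.139) were last. Each of the first 5 overlapped in range with the next, while Mertk lay above Csf1 and Csf1 above Cd163 without overlap. By mean RPKM, Trem2 had rank 10 of 10 in young mice, rank 7 in IgG2a mice (7.64 ± 3.44, SD, n = 4) and rank 8 in aPD1ab mice (3.95 ± 1.46, SD, n = 4). All ranks depend on the union exon length used, such as 4946 bases for Trem2 and 2546 for P2ry12. That length can exceed the length of the transcripts present, and ranks with other lengths were not tested. Cd163 was last in both aged groups, at 2.80 ± 1.32 and 0.932 ± 0.365 RPKM (SD, n = 4 and 4).

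Across the 13 libraries, Csf1r, Cx3cr1, P2ry12, Adgre1, Mrc1 and Cd68 followed each other closely, with Pearson r of log2 CPM from 0.84 (Cd68 with Mrc1 and with Adgre1) to 0.98 (Csf1r with Cx3cr1). Trem2 followed Cd68 (0.83) more closely than Adgre1 (0.57) or Cx3cr1 (0.61). Cd163 was closest to Mrc1 (0.80). Mertk reached 0.59 with Cd163 and 0.48 with Csf1, and Csf1 had an r between -0.29 and 0.08 with each of the other 8. Against the summed core genes the r was 0.97 for Csf1r, 0.96 for both Cd68 and P2ry12, 0.83 for Trem2, 0.57 for Cd163, 0.14 for Mertk and -0.17 for Csf1. Against the proximal tubule score the r was -0.94 for P2ry12, -0.92 for Csf1r and 0.11 for Csf1. Trem2 had an r of -0.78 with the summed podocyte markers. These values describe 13 libraries that share groups, depth and tissue makeup.

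**Figure D5:**
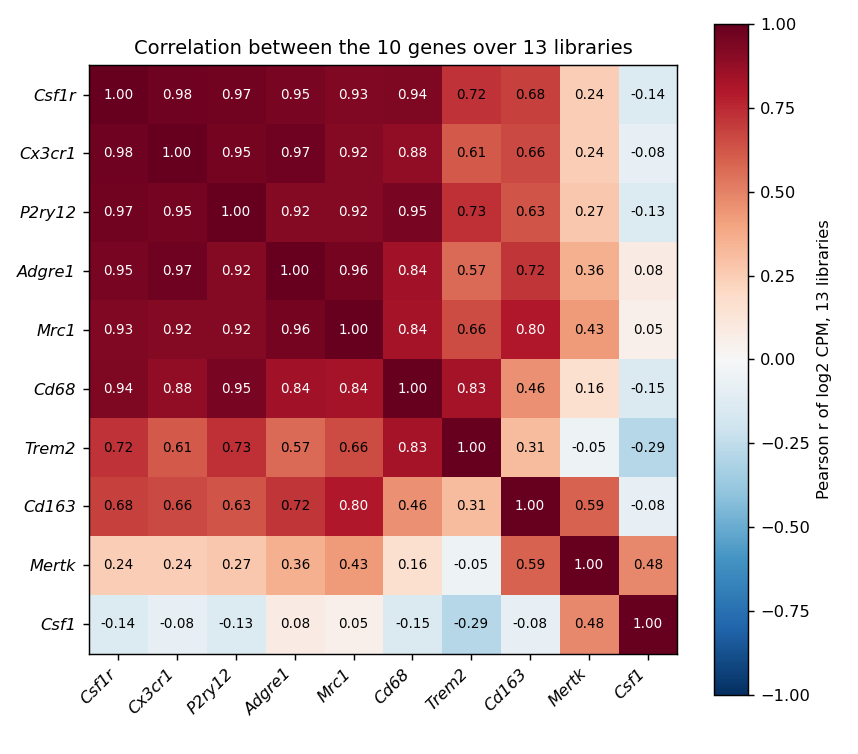
Pearson r of log2 CPM over 13 libraries for each pair of the 10 genes (rows and columns), on a color scale from -1 to 1. The 6 genes at the upper left have r of 0.84 to 0.98 with each other, and Csf1, in the last row, has no r above 0.48.

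The 5 genes outside the 10 whose pattern was most like that of Csf1r were Fermt3 (r = 0.99), an integrin activator of blood cells, H2-M3, Axl, Mpeg1, a pore-forming protein of macrophages, and C3ar1, the receptor for complement C3a (r = 0.98 for C3ar1). Those most like P2ry12 were Igsf6 (r = 0.98), Mpeg1, Axl, St6galnac4 and Idua (r = 0.97). For Trem2, chosen after its values were seen, they were Blvrb (r = 0.98), Dnase2a, a lysosomal nuclease, Apoe, Wfdc17 and Rnf130 (r = 0.96). Likeness was measured as Pearson r of log2 CPM over 13 libraries among 16330 genes.

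Other leukocyte lists gave the setting of these values. With age 13 of the 16 core genes were higher (median 1.41), among them Lyz2 (lysozyme, 1.41), Ctss (cathepsin S, 1.40) and Pf4 (2.00), and in aPD1ab against young mice 2 of 16 were higher (median 0.58), Fcer1g and Pf4. Of 10 perivascular resident macrophage genes, 4 were higher with age, among them Igf1, a growth factor (2.24), Cbr2, a carbonyl reductase (1.72), and Siglec1, the sialic acid receptor CD169 (2.14). Of 10 monocyte genes 1 was higher, Treml4 (1.95). Of 6 pan-leukocyte genes 3 were higher, and of 8 dendritic cell genes 1 was higher and 1 lower. Among 7 neutrophil genes 4 were tested and 1 was higher, and among 8 T and NK cell genes 1 was higher and 1 lower. Of 6 B and plasma cell genes 1 was higher, Jchain, the joining chain of secreted antibody (3.78). Over the same comparison 6 of 8 podocyte, 9 of 10 proximal tubule, 5 of 7 endothelial and 2 of 6 mesangial and pericyte genes were lower and none of these higher, and of 6 distal nephron genes 1 was higher. In the fit without IgG2a replicate 1, the genes called higher were 16 of 16 core, 4 of 10 perivascular macrophage, 2 of 10 monocyte, 6 of 6 pan-leukocyte, 1 of 8 dendritic cell, 1 of 5 neutrophil, 4 of 8 T and NK cell and 1 of 6 B and plasma cell genes. In that fit 2 of 8 dendritic cell, 1 of 8 T and NK cell, 6 of 8 podocyte, 10 of 10 proximal tubule, 6 of 7 endothelial, 2 of 6 mesangial and pericyte and 1 of 6 distal nephron genes were lower.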

How the data were processed

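Podocyte fractions of young mice and of aged mice given IgG2a or aPD1ab were sequenced from TruSeq libraries. The authors deposited the reads of each gene as whole-number counts without normalization. The submitters' processing notes name HISAT2, featureCounts and the builds mm10 and GRCm38; versions and strand setting are not given in the sources used here. Columns were tied to groups by the mouse numbers that the study prints beside its podocyte libraries. Of 15 columns 13 were used and 2 carried numbers tied to no group. The table has no column of another unit. Nothing ties the libraries to batches.

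Groups were compared pairwise, each fit holding only the libraries of its pair, in edgeR 4.0.16 under R 4.3.3 (quasi-likelihood test, robust, TMM scaling, filterByExpr, Benjamini-Hochberg adjustment), and a gene was called at an adjusted p under 0.05. The p-values measure the spread between mice as labelled. CPM used TMM over 13 libraries, and RPKM divided CPM by union exon length in GENCODE M21 (GRCm38). For correlations log2 CPM had a prior count of 2. In fits relative to the macrophage core the summed counts of 16 core genes replaced the library size. The fits were tested on simulated counts that held no outlying library and no shift in cell mixture, so that test does not cover either.

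The 10 genes and the 22 lists (191 genes) were chosen with earlier results of these data known. The text names all 10 genes, and from each list up to 3 genes of highest mean CPM and up to 2 of smallest p in a comparison, unless it says otherwise. Alternatives were DESeq2 1.42.0, limma 3.58.1 (voom with quality weights), median-of-ratios size factors, 1 fit of all groups, no filter on low counts, a fold threshold of 2, a proximal tubule covariate (mean scaled log2 CPM of 10 markers), a core without complement genes and leaving out each library. Promoter windows came from RefSeq (GRCm38.p6). The other cell fraction was not analysed here. Values of some listed genes are not reported here.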

Additional observations from a re-analysis of the deposited data

Results flagged for a closer look

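In 30 groups of 4 or 5 libraries (10 genes in 3 groups) the highest and the lowest library were compared with the others by Dixon's ratio at the 95% level, by which chance picks about 1 group in 20. It picked 2. Cx3cr1 in aged IgG2a replicate 1 was at 129.9 CPM, where the other 3 libraries of that group had 362 to 408 CPM (ratio 0.835). Mrc1 in aged aPD1ab replicate 2 was at 61.1 CPM, where the other 3 had 133 to 143 CPM (ratio 0.880). In aPD1ab replicate 2 the proximal tubule markers summed to 13888 CPM, the highest of all libraries, and the macrophage core to 3258 CPM, the lowest of its group. The part of either in these values was not tested.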

How the results depend on the processing

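For IgG2a against young mice the count of 7 called genes became 0 with the proximal tubule covariate and 1 to 7 when 1 library was left out, and was 5 in 1 fit of all 3 groups, 5 with no filter on low counts, 6 over 2-fold, 7 with DESeq2 or median-of-ratios size factors and 8 with limma. The calls over all genes changed too, from 2780 to 36 with the covariate and to 553 to 7397 with 1 library left out. They were 2282 in 1 fit of all 3 groups and 1893 with no filter. DESeq2 called 4455 genes, median-of-ratios size factors 2697 and limma 7423. The median log2 fold change of 1.15 became -0.41 with that covariate, and the values turned to -0.30 for Cd68, -0.35 for Adgre1, -0.47 for Csf1r, -0.21 for Mrc1, -0.58 for Mertk, -0.47 for P2ry12, 0.19 for Csf1, -1.09 for Cd163 and -0.64 for Cx3cr1. For aPD1ab against IgG2a the count of 0 became 7 with DESeq2, 8 with limma, 6 in 1 fit of all 3 groups and 0 to 8 when 1 library was left out. The median of -1.06 became 0.046 with the covariate, and the values turned to 0.14 for Cd68, 0.33 for Trem2, 0.086 for Adgre1, 0.16 for Csf1r, 0.0070 for Csf1 and 0.29 for Cx3cr1. Csf1 also turned to 0.020 with limma. Of 15530 genes 0 were called by edgeR, 2373 by DESeq2 and 6160 by limma, and in 1 fit of 3 groups 2863 of 16330. With the covariate 0 of 15530 were called, and with 1 library left out 0 to 4788, the latter of 15770 without IgG2a replicate 1. For aPD1ab against young mice the count of 1 became 2 with the covariate and 1 to 2 when 1 library was left out. Over all genes 3578 of 15986 became 5375 with the covariate and 2369 to 3868 when 1 library was left out. There Csf1r turned from 0.08 to -0.010 with limma and to -0.12 with the covariate, and P2ry12 from 0.08 to -0.16 with the covariate. The summed proximal tubule markers did not overlap between young and IgG2a libraries, so the covariate and the group cannot be told apart there, and the cause of the other turns was not tested.

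When 1 library was left out, values near 0 crossed it: for IgG2a against young mice Mertk ranged from -0.030 to 0.26 and Csf1 from -0.17 to 0.034, and for aPD1ab against IgG2a Csf1 from -0.27 to 0.075. For aPD1ab against young mice the ranges were -0.35 to 0.017 for Adgre1, -0.067 to 0.23 for Csf1r, -0.19 to 0.13 for Mrc1, -0.081 to 0.27 for P2ry12 and -0.30 to 0.13 for Cx3cr1. Relative to the macrophage core, the counts of called genes among the 10 ranged from 0 to 5 for IgG2a against young, 0 to 2 for aPD1ab against IgG2a and 1 to 3 for aPD1ab against young mice. Over all genes on this scale they ranged from 20 of 16295 to 14335 of 16216, from 0 to 10699 of 15770 and from 245 of 15830 to 5212 of 16288. Each highest count among the 10 came from the fit that called the most genes. On that scale Cd68 ranged from -0.10 to 0.16 and Trem2 from -0.14 to 0.016 for aPD1ab against IgG2a, and Cd68 from -0.048 to 0.21 for aPD1ab against young mice. A core without complement genes changed no call of the 10 genes.

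P2ry12 had 63 to 605 counts in a library, so that its values carry counting error beside the spread between mice. No paired analysis was possible because the columns carry no number that is shared between groups.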

Other observations

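Within the aged aPD1ab group, replicate 2 had the lowest CPM of 8 of the 10 genes: Csf1r (340.3), Adgre1 (92.2), Cx3cr1 (74.3), P2ry12 (2.56), Mrc1 (61.1), Cd163 (3.05), Cd68 (90.7) and Trem2 (12.1). Csf1 (18.7) and Mertk (35.5) were lowest in replicate 3, which had the highest macrophage core sum of its group, 7235 CPM. Relative to the core, Trem2 in replicate 2 was at 0.370 reads per 100 core reads, within the 0.313 to 0.406 of the group.

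Young replicate 4 combined the lowest macrophage core sum of the 13 libraries, 2721 CPM, with the highest Mertk, 89.8 CPM, and 16.2 CPM of Cd163, the highest of the young group. Relative to the core it had 3.30 reads per 100 core reads of Mertk and 0.597 of Cd163, the highest of all 13 libraries for both.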
